A study of Mus musculus with 14 samples.

Results

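The genes described here are 40 mouse genes of NF-kB signalling: the NF-kB subunits, their inhibitors, feedback regulators and target genes other than cytokines and chemokines. They were chosen by symbol from a fixed list, and all 40 were found among the 41739 genes of the deposited table. The table gives the RNA of microglia, the resident macrophages of the brain, in 14 libraries. KO mice carried the Rheb F/F alleles with Tmem119-cre ER, a tamoxifen-inducible Cre driven from a microglial gene, and WT mice carried Rheb F/F without the Cre. Rheb encodes the small GTPase that activates the kinase complex mTORC1. Tamoxifen was given, and mice aged 8 weeks then received PBS or 1.0 mg/kg LPS (lipopolysaccharide, a bacterial endotoxin) by intraperitoneal injection on 4 consecutive days. The groups were KO LPS (4 libraries, KO_LPS_1 to KO_LPS_4), WT LPS (4 libraries, WT_LPS_1 to WT_LPS_4), KO PBS (3 libraries, KO_PBS_911, KO_PBS_912 and KO_PBS_915) and WT PBS (3 libraries, WT_PBS_904, WT_PBS_913 and WT_PBS_914). The floxed alleles and tamoxifen are shared by all 4 groups, so WT here is not an unmodified mouse. Only KO mice carried the Cre, so loss of Rheb and presence of the Cre cannot be told apart in any KO against WT comparison. Cells were separated from brain with magnetic beads. Nothing in the labels says that each library came from its own mouse, so p-values measure the spread between these libraries.

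NF-kB is a family of dimeric transcription factors that rest in the cytoplasm bound to IkB proteins. LPS binds TLR4, the IkB kinase complex is activated, IkB is degraded and the freed dimers enter the nucleus. Among the first genes they switch on are their own inhibitors, such as Nfkbia (IkB alpha) and Tnfaip3 (A20), so the pathway limits itself. In microglia the pathway is known for driving the inflammatory response to endotoxin, and repeated endotoxin is known to leave some targets less inducible and others not.

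The dimers bind short DNA elements called kB sites, so the sequence just upstream of the members' start sites is shown before their values. RefSeq promoters on GRCm38.p6, each running from 250 bases before to 50 bases after an annotated start, were at hand for 30 of the 40 members. The kB consensus, searched on both strands, had a match in at least 1 promoter of 13 of these 30 members (43.3%), against 5.14% of all 27025 genes with a promoter in the table. The form GGAAATTCC, which can overlap a consensus match, was in promoters of Nfkbia, Tnfaip3 and Icam1 and of 0.381% of all genes. A match is a description of letters and not evidence of binding. The 6 promoters printed first hold consensus matches, in capitals, and belong to inhibitors, feedback regulators, a subunit and Csf1, whose levels are given below. In the Icam1 promoter, shown because Icam1 is the member that passed the test between the genotypes under PBS, capitals mark GGAAATTCC; it held no consensus match. Overlapping matches run together as a single capital stretch.
Nfkbia, chr12:55492598-55492897, minus strand: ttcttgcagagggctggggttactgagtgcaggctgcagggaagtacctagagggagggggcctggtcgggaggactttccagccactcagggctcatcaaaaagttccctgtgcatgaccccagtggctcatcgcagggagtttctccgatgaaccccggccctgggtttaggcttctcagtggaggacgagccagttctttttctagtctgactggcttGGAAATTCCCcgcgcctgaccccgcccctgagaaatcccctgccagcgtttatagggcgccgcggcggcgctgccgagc
Nfkb2, chr19:46304487-46304786, plus strand: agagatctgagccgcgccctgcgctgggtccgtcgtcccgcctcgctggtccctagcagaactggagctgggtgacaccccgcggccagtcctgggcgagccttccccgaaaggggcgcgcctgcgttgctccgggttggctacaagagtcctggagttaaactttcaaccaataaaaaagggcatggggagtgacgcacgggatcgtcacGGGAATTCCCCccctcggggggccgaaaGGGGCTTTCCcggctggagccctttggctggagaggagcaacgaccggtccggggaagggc
Bcl3, chr7:19822706-19823005, minus strand: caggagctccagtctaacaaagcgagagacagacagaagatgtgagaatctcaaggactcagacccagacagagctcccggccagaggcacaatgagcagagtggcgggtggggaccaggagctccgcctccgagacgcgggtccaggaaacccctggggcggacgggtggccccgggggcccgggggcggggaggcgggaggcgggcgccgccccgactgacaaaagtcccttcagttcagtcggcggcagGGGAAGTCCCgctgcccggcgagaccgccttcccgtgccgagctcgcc
Tnfaip3, chr10:19015361-19015660, minus strand: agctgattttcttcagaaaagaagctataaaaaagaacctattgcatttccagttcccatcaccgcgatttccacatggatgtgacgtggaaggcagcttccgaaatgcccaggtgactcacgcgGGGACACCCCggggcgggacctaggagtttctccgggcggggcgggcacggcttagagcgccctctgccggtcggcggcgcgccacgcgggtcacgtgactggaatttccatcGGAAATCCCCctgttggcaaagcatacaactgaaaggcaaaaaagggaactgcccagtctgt
Tnip1, chr11:54962891-54963190, minus strand: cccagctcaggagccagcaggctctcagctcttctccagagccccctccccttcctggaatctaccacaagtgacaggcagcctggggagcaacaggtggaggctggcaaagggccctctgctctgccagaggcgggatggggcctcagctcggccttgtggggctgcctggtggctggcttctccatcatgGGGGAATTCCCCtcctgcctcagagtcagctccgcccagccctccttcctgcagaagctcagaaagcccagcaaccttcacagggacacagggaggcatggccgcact
Csf1, chr3:107760420-107760719, minus strand: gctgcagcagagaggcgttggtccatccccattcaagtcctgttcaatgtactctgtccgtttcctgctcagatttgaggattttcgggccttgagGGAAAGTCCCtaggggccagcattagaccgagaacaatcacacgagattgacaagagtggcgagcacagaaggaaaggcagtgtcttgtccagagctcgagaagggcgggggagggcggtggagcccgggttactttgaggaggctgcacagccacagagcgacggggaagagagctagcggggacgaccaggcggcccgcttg
Icam1, chr9:21015690-21015989, plus strand: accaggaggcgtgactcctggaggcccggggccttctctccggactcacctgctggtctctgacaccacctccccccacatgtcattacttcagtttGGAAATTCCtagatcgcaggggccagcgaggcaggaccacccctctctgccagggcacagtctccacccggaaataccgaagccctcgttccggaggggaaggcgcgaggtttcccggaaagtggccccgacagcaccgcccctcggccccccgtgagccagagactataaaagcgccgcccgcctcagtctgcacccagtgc

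**Figure D1:**
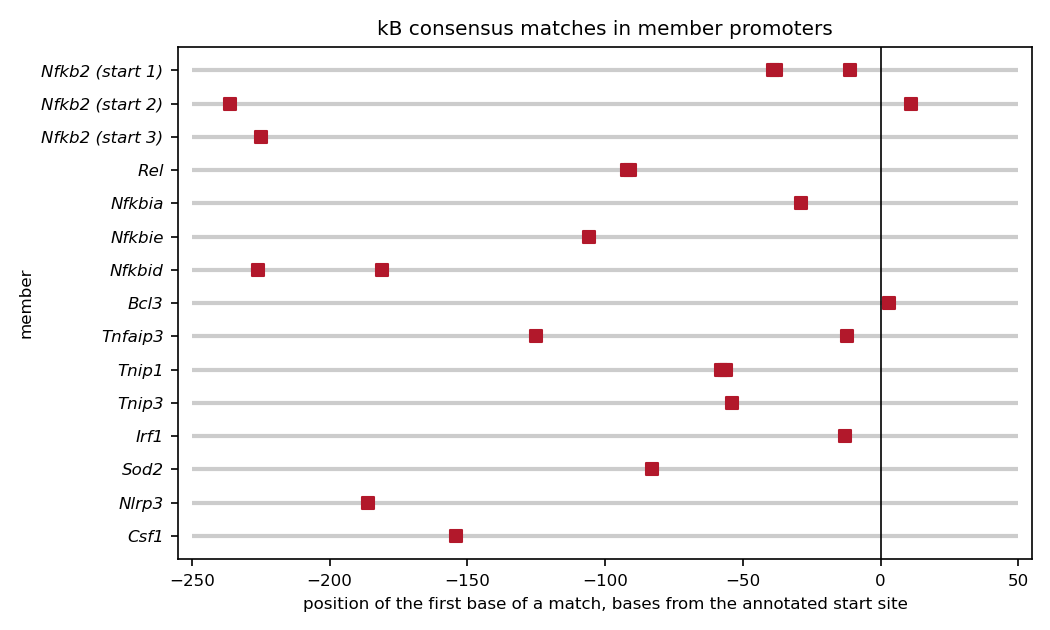
Positions of kB consensus matches in member promoters. Each grey line is 1 annotated promoter of the 13 members with a match, the horizontal axis gives bases from the start site, and each red square marks the first base of a match. The Nfkbia match starts 29 bases before the start site, and the Bcl3 match starts at base 3 after it.

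The match in the Nfkbia promoter lay from base -29 to base -20, and those in the Nfkb2 promoter printed above lay between bases -39 and -2. Tnip1 carried 3 overlapping matches between bases -58 and -47. After LPS, 8 of the 13 members with a match and 14 of the 17 without rose in KO, and 10 of 13 and 15 of 17 rose in WT; the difference was not tested. Of the 10 members with no promoter in the table, 8 rose in KO and 9 in WT.

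Levels are in TPM, which scale reads by gene length and library total, so they can be compared between genes. Depth, recovered from the TPM steps, ran from 8.00 M reads (KO_LPS_4) to 32.3 M reads (WT_LPS_1). Rheb averaged 22.7 ± 2.43 TPM in KO LPS, 30.8 ± 3.83 in WT LPS, 18.2 ± 1.43 in KO PBS and 32.1 ± 2.39 in WT PBS (SD; n = 4, 4, 3 and 3). KO minus WT for Rheb was -0.79 under PBS (adjusted p = 0.0163) and -0.42 under LPS (adjusted p = 0.11). The design text calls the mice female, yet Xist was at 255 to 574 TPM in the LPS libraries and at most 0.147 TPM in the PBS libraries, which carried Ddx3y of the Y chromosome (111 to 146 TPM). Sex and treatment therefore cannot be told apart in any LPS against PBS comparison below. The RNA gene Gm23935 took 4.04 to 15.4% of TPM in LPS libraries and 0.0566 to 0.248% in PBS libraries, which lowers every other gene's TPM in the LPS groups. The summed TPM of 8 microglial markers was 12148 to 17282 in KO LPS, 16029 to 19952 in WT LPS, 25710 to 27306 in KO PBS and 23495 to 30125 in WT PBS, with none at 0. After LPS 8 of 8 fell in KO, where 26.9% of all genes fell, and 5 of 8 in WT, where 34.1% fell. The markers include Tmem119, the gene from which the Cre was driven. It was at 764 to 1016 TPM in KO LPS against 1608 to 1872 in WT LPS. Under PBS it was at 2002 to 2176 TPM in KO against 2911 to 3766 in WT. The cause was not tested. Neutrophil markers were present throughout (5048 to 24629 TPM summed over 8 genes). KO_LPS_3 and, more so, WT_PBS_914 also carried pituitary transcripts (Gh at 19672 and 78126 TPM).

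After LPS, most of the 40 members rose in both genotypes, and none fell. In KO, 30 members rose and 0 fell by the test used throughout, limma on log2(TPM + 1) with Benjamini-Hochberg adjusted p under 0.05. Of the 18724 genes tested in KO, 7.82% rose and 26.9% fell (34.7% in either direction). In WT, 34 members rose and 0 fell, where 7.95% of all genes rose and 34.1% fell (42% in either direction). The median member differed by 1.38 in KO and 1.61 in WT on the log2(TPM + 1) scale, while the median of all genes was -0.22 in KO and -0.28 in WT. With median-of-ratios scaling the median of all genes moved to 0.00 in KO and 0.01 in WT, the member medians to 1.61 and 1.92, and the calls to 32 and 37 members. The share of all genes called with it is not given here. With that scaling some small rises grew by more than 1.5 times: Bcl2a1b to 0.78 in KO and 0.97 in WT, and, in WT, Nfkb1 to 0.79, Nfkbib to 0.92 and Tnfrsf1b to 0.71. All LPS libraries exceeded all PBS libraries for 30 members in KO, where 9.52% of all genes did so, and for 33 in WT, where 8.45% did; no member had all LPS libraries below all PBS libraries, where 31.3% of all genes did in KO and 37.4% in WT. The 30 members that rose in KO all rose in WT too. Nfkb1, Nfkbia, Nfkbid and Tnfrsf1b passed the test in WT and not in KO, and for none of them did the difference between the genotypes' responses pass. Cflar, Irf1, Nlrp3, Rel, Rela and Ripk2 were called in neither. In these bulk samples, fewer cells of a type and less RNA per cell cannot be told apart. The 8 monocyte markers summed to 1278.5 to 1936 TPM in KO LPS, 1218 to 2469 in WT LPS, 411 to 487 in KO PBS and 358 to 1062 in WT PBS, and 7 of 8 rose in each genotype. Neutrophil markers summed to 11335 to 24629, 9137 to 21564, 5048 to 7992 and 5598 to 23208 TPM in the same order of groups. Of these, 5 of 8 rose in KO and 1 of 8 in WT, and the difference between the genotypes' responses passed for 0 of 8. WT_PBS_914 alone gave the highest WT PBS sums of both lists. WT_PBS_904 and WT_PBS_913 were at 5598 and 7677 TPM for neutrophil markers and at 358 and 510 TPM for monocyte markers. Many members are also expressed in those cells, and their part in the LPS differences was not tested.

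**Figure D2:**
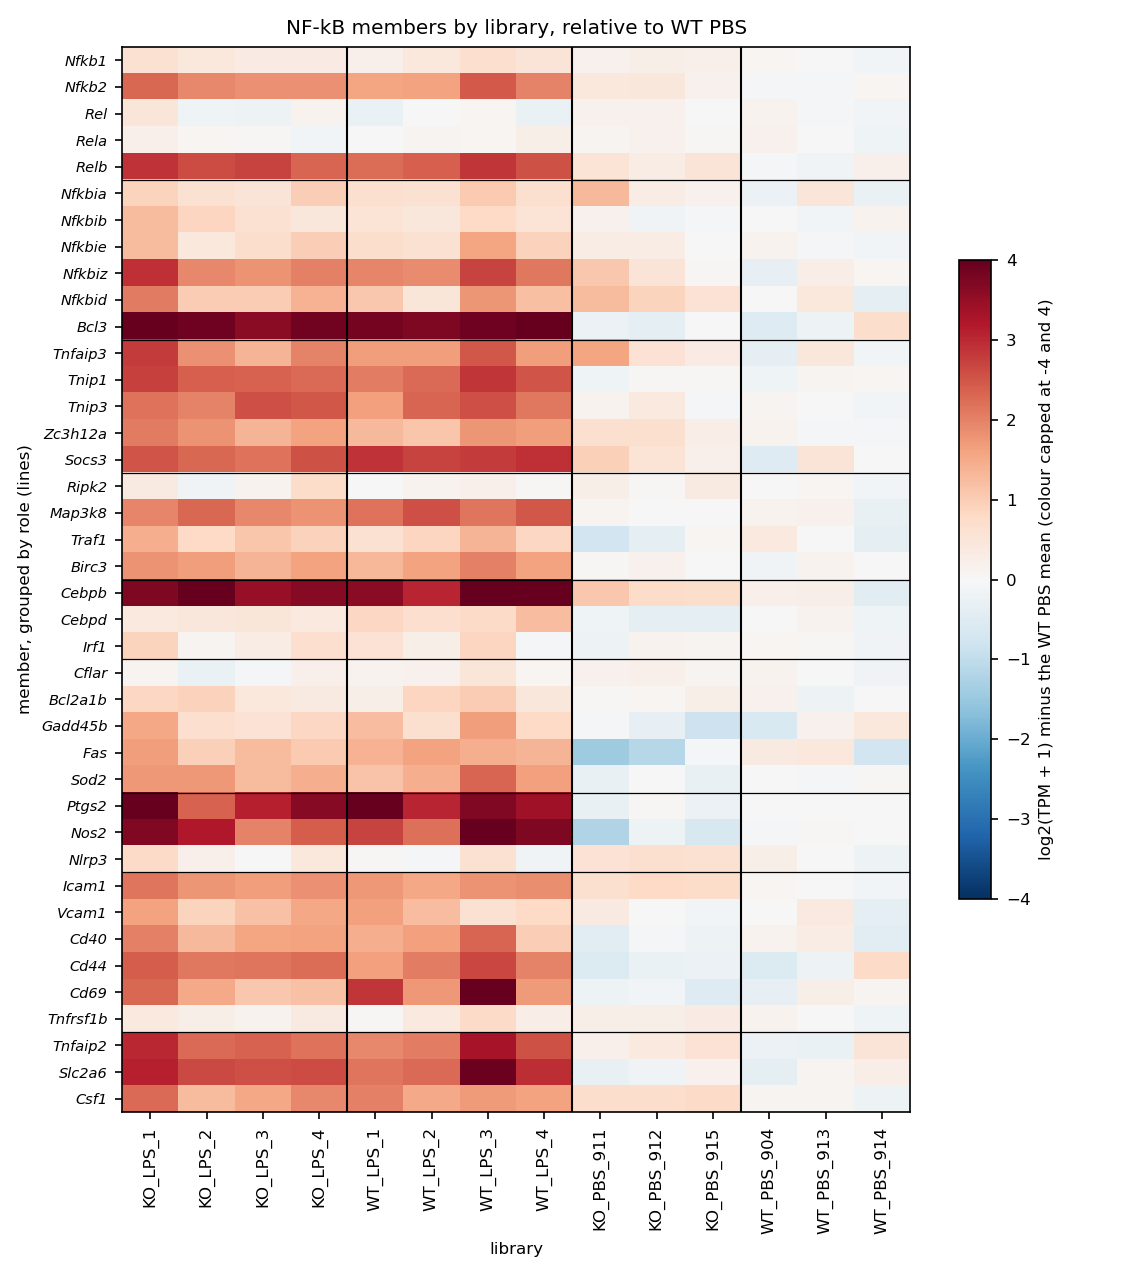
Level of each member in each library relative to the WT PBS mean. Rows are the 40 members, separated by lines into roles, columns are libraries in the order KO LPS, WT LPS, KO PBS and WT PBS, and colour gives the difference in log2(TPM + 1), capped at -4 and 4. Bcl3, Cebpb, Ptgs2 and Nos2 stand out in the LPS libraries, whereas Rel, Rela, Ripk2 and Cflar keep much the same colour in all 14 columns.

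Of the 5 subunit genes, those of the noncanonical arm moved most. Relb, which encodes the partner of p52, was at 52.1, 42.9, 45.6 and 34.9 TPM in KO LPS, 32.8, 36.6, 51.7 and 41.2 in WT LPS, 9.44, 7.91 and 9.34 in KO PBS, and 5.95, 5.50 and 7.28 in WT PBS. The LPS and PBS libraries did not overlap in either genotype, and Relb rose by 2.17 ± 0.16 in KO and 2.51 ± 0.16 in WT (log2 scale, SE; adjusted p = 2.61e-06 and 7.5e-07). Nfkb2, which encodes p100, the precursor of p52, averaged 85.7 ± 14.4 TPM in KO LPS, 83.6 ± 25.4 in WT LPS, 27.1 ± 3.16 in KO PBS and 21.0 ± 1.17 in WT PBS. Its rise was 1.62 ± 0.19 in KO (adjusted p = 5.96e-05) and 1.90 ± 0.19 in WT (adjusted p = 2.41e-05). Nfkb1, the gene of p105 and p50, averaged 81.7 ± 7.70, 84.1 ± 11.6, 69.7 ± 1.87 and 60.8 ± 3.91 TPM in KO LPS, WT LPS, KO PBS and WT PBS. It differed by 0.22 ± 0.10 in KO (adjusted p = 0.118) and rose by 0.45 ± 0.10 in WT (adjusted p = 0.00469). Rela, the gene of the p65 activator, stood between 94.9 and 126 TPM in all 14 libraries, and Rel, the gene of c-Rel, between 41.8 and 70.4 TPM. Neither passed the test in either genotype; Rela differed by -0.05 in KO and 0.10 in WT, and Rel by -0.05 and -0.11.

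Of the 6 IkB family genes, 4 rose in KO and all 6 in WT, by amounts that differed widely. Bcl3, an atypical nuclear IkB that binds p50 and p52 dimers, showed the largest difference of the 40 members in both genotypes on the log2(TPM + 1) scale, which understates the change of genes with low PBS levels. It was at 83.3, 69.3, 56.5 and 67 TPM in KO LPS, 65.9, 61.1, 69.2 and 89.5 in WT LPS, 2.98, 2.61 and 3.63 in KO PBS, and 2.31, 3.07 and 6.67 in WT PBS. The ratio of the LPS mean to the PBS mean was 22.4 in KO and 17.8 in WT, below the 22.8 and 21.7 of Nos2 and, in WT, the 21.2 of Cd69. The log2 difference for Bcl3 was 4.10 ± 0.24 and 3.93 ± 0.24 (adjusted p = 3.52e-07 and 5.2e-07). Nfkbiz, the nuclear IkB zeta needed for secondary response genes, was at 340.2, 169, 156 and 182 TPM in KO LPS, 174, 167, 294 and 193 in WT LPS, 93.6, 63.8 and 45.4 in KO PBS, and 34.8, 53.9 and 46.3 in WT PBS. It rose by 1.62 ± 0.30 in KO (adjusted p = 0.00126) and 2.16 ± 0.30 in WT (adjusted p = 0.000237).
Nfkbia was the most abundant of the IkB genes in every group and differed less between treatments. It was at 1385, 1125, 1049.7 and 1466 TPM in KO LPS, 1152, 1139, 1516 and 1145 in WT LPS, 1807, 912.6 and 842 in KO PBS, and 629, 1046 and 618 in WT PBS. In KO the library KO_PBS_911 exceeded all 4 LPS libraries, and the difference was 0.16 ± 0.26 (adjusted p = 0.675). In WT, Nfkbia rose by 0.73 ± 0.26 (adjusted p = 0.0372), a call that was lost when any WT library other than WT_PBS_913 was left out (0.60 to 0.77, adjusted p from 0.0510 to 0.134). Nfkbid, another nuclear IkB, averaged 59.6 ± 23.1 TPM in KO LPS, 50.2 ± 18.2 in WT LPS, 42.1 ± 10.4 in KO PBS and 21.9 ± 6.39 in WT PBS; it differed by 0.45 ± 0.31 in KO (adjusted p = 0.289) and rose by 1.13 ± 0.31 in WT (adjusted p = 0.012; 0.93 and 0.0517 without WT_PBS_914). The cytoplasmic inhibitor Nfkbib averaged 45.3 ± 12.3, 38.3 ± 3.89, 24.9 ± 2.91 and 25.0 ± 2.20 TPM in KO LPS, WT LPS, KO PBS and WT PBS, and rose by 0.81 in KO and 0.59 in WT (adjusted p = 0.00248 and 0.0127). Nfkbie, the gene of IkB epsilon, averaged 34.9 ± 8.82, 38.3 ± 12.8, 21.5 ± 2.64 and 18.6 ± 1.65 TPM. It rose by 0.65 in KO and 0.96 in WT (adjusted p = 0.0382 and 0.0048), and the KO call was lost without KO_LPS_1, KO_LPS_4 or any of the 3 KO PBS libraries (0.51 to 0.70, adjusted p from 0.0671 to 0.133).

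All 5 feedback regulators rose in both genotypes. Socs3, an inhibitor of cytokine receptor signalling through JAK kinases, was the most abundant of the 40 members in WT LPS. It was at 1321, 1128, 1038 and 1324 TPM in KO LPS, 1684, 1476, 1578 and 1741 in WT LPS, 441, 331 and 259 in KO PBS, and 159, 328 and 226 in WT PBS. The rise was 1.83 ± 0.22 in KO and 2.82 ± 0.22 in WT (adjusted p = 6.64e-05 and 3.65e-06). Tnfaip3, a ubiquitin-editing enzyme that shuts off signalling to the IkB kinase, was at 325, 163, 119 and 183 TPM in KO LPS, 147, 147, 257 and 145 in WT LPS, 137, 68.8 and 57.8 in KO PBS, and 35.3, 63.1 and 41.9 in WT PBS. KO_PBS_911 lay above KO_LPS_3, and the rise was 1.16 ± 0.36 in KO and 1.87 ± 0.36 in WT (adjusted p = 0.0231 and 0.00156). The KO call was lost without KO_LPS_1, KO_PBS_912 or KO_PBS_915 (0.89 to 1.04, adjusted p from 0.0560 to 0.104). Tnip1, an adaptor that brings A20 to its substrates, averaged 119.7 ± 18.3 TPM in KO LPS, 120.2 ± 29.9 in WT LPS, 20.6 ± 1.86 in KO PBS and 21.1 ± 2.42 in WT PBS. Its rise was 2.47 ± 0.17 in KO and 2.43 ± 0.17 in WT (adjusted p = 1.11e-06 and 1.51e-06). Its relative Tnip3 was scarce, at 4.2 to 6.79 TPM in KO LPS, 3.10 to 6.77 in WT LPS, 0.263 to 0.698 in KO PBS and 0.209 to 0.403 in WT PBS. It rose by 2.15 in KO and 2.17 in WT on a scale that understates changes at such levels (adjusted p = 4.26e-05 and 5.69e-05). The size depended on the pseudocount, at 3.37 and 3.63 with 0.1 and at 0.94 and 0.90 with 5. Zc3h12a, which encodes Regnase-1, a ribonuclease that degrades inflammatory mRNAs, averaged 77.6 ± 16.6, 65.8 ± 14.1, 33.0 ± 4.93 and 22.8 ± 2.10 TPM in KO LPS, WT LPS, KO PBS and WT PBS. It rose by 1.19 in KO and 1.47 in WT (adjusted p = 0.000397 and 0.000131).

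Among the signalling adaptors and kinases, 3 of 4 rose in both genotypes. Map3k8, the kinase Tpl2 that relays endotoxin signals to ERK, averaged 110.4 ± 17.5 TPM in KO LPS, 141 ± 22.6 in WT LPS, 27.1 ± 1.34 in KO PBS and 27.0 ± 4.65 in WT PBS. It rose by 1.98 ± 0.15 in KO and 2.35 ± 0.15 in WT (adjusted p = 2.61e-06 and 6.22e-07). Birc3, the ubiquitin ligase cIAP2, averaged 104 ± 12.9, 106 ± 21.7, 34.8 ± 2.09 and 33.3 ± 3.48 TPM and rose by 1.54 and 1.63 (adjusted p = 1.2e-05 and 9.4e-06). Traf1, an adaptor of TNF receptor family members, averaged 13 ± 2.97, 11.6 ± 3.02, 4.28 ± 1.57 and 5.72 ± 1.72 TPM and rose by 1.43 in KO and 0.91 in WT (adjusted p = 0.000949 and 0.0116; in WT 0.74 and 0.0507 without WT_PBS_914). Ripk2, the kinase downstream of the NOD receptors, stayed between 32.8 and 60.8 TPM in all libraries and did not pass the test (0.07 in KO and 0.09 in WT).

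Of the 3 transcription factor targets, Cebpb and Cebpd rose in both genotypes. Cebpb encodes C/EBP beta, a factor that acts with NF-kB at many inflammatory promoters. Its levels were 286, 352, 239 and 263 TPM in KO LPS, 260.3, 176, 414 and 377 in WT LPS, 43.7, 34.7 and 33.7 in KO PBS, and 23.4, 24.0 and 14.9 in WT PBS. The rise was 2.89 ± 0.26 in KO and 3.77 ± 0.26 in WT (adjusted p = 1.09e-05 and 1.48e-06). Its relative Cebpd rose by 0.74 ± 0.12 and 0.87 ± 0.12 (adjusted p = 0.000496 and 0.000216). Irf1, an interferon regulatory factor, averaged 55.9 ± 14 TPM in KO LPS, 52.7 ± 14.8 in WT LPS, 39.1 ± 4.93 in KO PBS and 38.4 ± 3 in WT PBS. Its difference was 0.48 in KO and 0.41 in WT and did not pass the test (adjusted p = 0.101 and 0.143).

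Of the survival and stress genes, 4 of 5 rose in both genotypes. Fas, the death receptor, averaged 73.2 ± 16.9 TPM in KO LPS, 84.4 ± 6.15 in WT LPS, 17.7 ± 10.1 in KO PBS and 32.2 ± 13.1 in WT PBS, and rose by 2.09 and 1.46 (adjusted p = 0.000422 and 0.00382). Sod2, the mitochondrial superoxide dismutase, averaged 60.0 ± 9.10, 67 ± 25.5, 17.2 ± 2.15 and 19.8 ± 0.874 TPM and rose by 1.74 and 1.64 (adjusted p = 9.25e-05 and 0.000167). Gadd45b, a stress-response gene, averaged 56.0 ± 19.1, 63.9 ± 21.2, 21.5 ± 5.76 and 29.6 ± 10.2 TPM and rose by 1.32 and 1.09 (adjusted p = 0.00538 and 0.0133; in WT 0.79 and 0.0735 without WT_PBS_904). Bcl2a1b, which encodes an anti-apoptotic A1 protein and has near-identical paralogs that reads may be shared with, averaged 100.2 ± 20.0, 101 ± 25.1, 68.9 ± 4.90 and 63.6 ± 8.08 TPM. It rose by 0.51 in KO and 0.63 in WT (adjusted p = 0.0478 and 0.0163). The KO call was lost without KO_LPS_1, KO_LPS_2 or any KO PBS library (0.42 to 0.57, adjusted p from 0.0711 to 0.126) and the WT call without WT_PBS_913 (0.54 and 0.0698). Cflar, an inhibitor of caspase-8, averaged 88.4 ± 12, 103 ± 13.9, 98.7 ± 3.19 and 87.9 ± 8.62 TPM and passed the test in neither genotype (-0.17 and 0.22).

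The inflammatory enzymes rose strongly from low PBS levels. Ptgs2, which encodes the prostaglandin-producing cyclooxygenase COX-2, was at 108, 30.8, 52.6 and 75.7 TPM in KO LPS, 96.3, 49.6, 79.7 and 63.2 in WT LPS, 4.03, 5.39 and 4.24 in KO PBS, and 5.19, 5.19 and 5.10 in WT PBS. The rise was 3.48 ± 0.33 in KO and 3.53 ± 0.33 in WT (adjusted p = 1.4e-05 and 1.59e-05). Nos2, the inducible nitric oxide synthase, was at 40.2, 28.1, 11.5 and 15.9 TPM in KO LPS, 19.4, 13.6, 114 and 41.5 in WT LPS, 0.369, 1.77 and 1.01 in KO PBS, and 2.03, 2.25 and 2.22 in WT PBS. No LPS library overlapped a PBS library, and the LPS libraries themselves were far apart, with WT_LPS_3 the highest and KO_LPS_3 the lowest. Nos2 rose by 3.51 ± 0.59 in KO and 3.46 ± 0.59 in WT (adjusted p = 0.00069 and 0.000828), and with limma voom on recovered reads it missed the threshold in both although the differences were larger (4.80 and 4.04, adjusted p = 0.116 and 0.0556). With a pseudocount of 5 the KO difference was 2.15 (adjusted p = 0.00572). Nlrp3, the sensor of the NLRP3 inflammasome, was at 110.3 to 185 TPM in KO LPS, 99.6 to 168 in WT LPS, 165 to 169.5 in KO PBS and 93.7 to 127 in WT PBS, and did not pass the test (-0.27 in KO and 0.13 in WT).

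Of the 6 adhesion and surface genes, 5 rose in KO and all 6 in WT. Icam1, the adhesion ligand of leukocyte integrins, rose by 1.13 ± 0.11 in KO and 1.74 ± 0.11 in WT (adjusted p = 1.36e-05 and 5.2e-07). Cd44, the hyaluronan receptor, averaged 92.6 ± 9.50 TPM in KO LPS, 86.2 ± 27.2 in WT LPS, 14.8 ± 1.74 in KO PBS and 20.5 ± 10.7 in WT PBS, and rose by 2.57 and 2.08 (adjusted p = 3.01e-05 and 0.000164). The co-stimulatory receptor Cd40 averaged 11.2 ± 2.63, 11.6 ± 5.19, 2.32 ± 0.426 and 3.01 ± 0.984 TPM and rose by 1.87 and 1.60 (adjusted p = 0.000413 and 0.00119), or by 1.14 and 1.01 with a pseudocount of 5. Vcam1, an adhesion ligand also made by endothelial cells, averaged 125 ± 29.0, 109 ± 36.7, 52.9 ± 9.08 and 50.3 ± 13.6 TPM and rose by 1.21 and 1.07 (adjusted p = 0.00326 and 0.00594). Tnfrsf1b, the TNF receptor TNFR2, was abundant in all groups, at 350.2 ± 27.4, 380.1 ± 81.1, 349 ± 12.3 and 289.7 ± 32.1 TPM. It did not differ detectably in KO (0.0025, adjusted p = 0.992) and rose by 0.37 in WT (adjusted p = 0.0431), a call lost without WT_LPS_2, WT_LPS_3, WT_PBS_913 or WT_PBS_914 (0.24 to 0.38, adjusted p from 0.0762 to 0.151). The activation marker Cd69 rose by 1.79 ± 0.59 in KO and 2.76 ± 0.59 in WT (adjusted p = 0.0321 and 0.00298). Its KO call was lost without KO_LPS_1, KO_LPS_2 or any KO PBS library (1.53 to 1.88, adjusted p from 0.0589 to 0.0942), and with a pseudocount of 5, where the difference was 0.75 in KO (adjusted p = 0.209) and 1.57 in WT (adjusted p = 0.013). With voom on recovered reads both calls were lost although the differences were larger (3.37 in KO and 3.997 in WT, adjusted p = 0.231 and 0.0617).

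The remaining targets rose in both genotypes. Slc2a6, a glucose transporter family member, averaged 34.9 ± 6.67 TPM in KO LPS, 42.2 ± 27.0 in WT LPS, 4.12 ± 0.878 in KO PBS and 4.44 ± 1.11 in WT PBS, and rose by 2.81 and 2.82 (adjusted p = 8.64e-05 and 0.000107). Tnfaip2, a TNF-inducible gene, averaged 62.4 ± 18.5, 65.7 ± 31.5, 14 ± 1.81 and 10.7 ± 3.85 TPM and rose by 2.05 and 2.45 (adjusted p = 0.000351 and 0.000135). Csf1, the ligand of the receptor on which microglia depend for survival, was at 92.1, 44.9, 55.6 and 71.5 TPM in KO LPS, 76.4, 53.9, 62.3 and 57.5 in WT LPS, 30.4, 30.3 and 31.6 in KO PBS, and 19.6, 19.9 and 15.6 in WT PBS. It rose by 1.03 ± 0.20 in KO and 1.71 ± 0.20 in WT (adjusted p = 0.0016 and 7.67e-05).

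**Figure D3:**
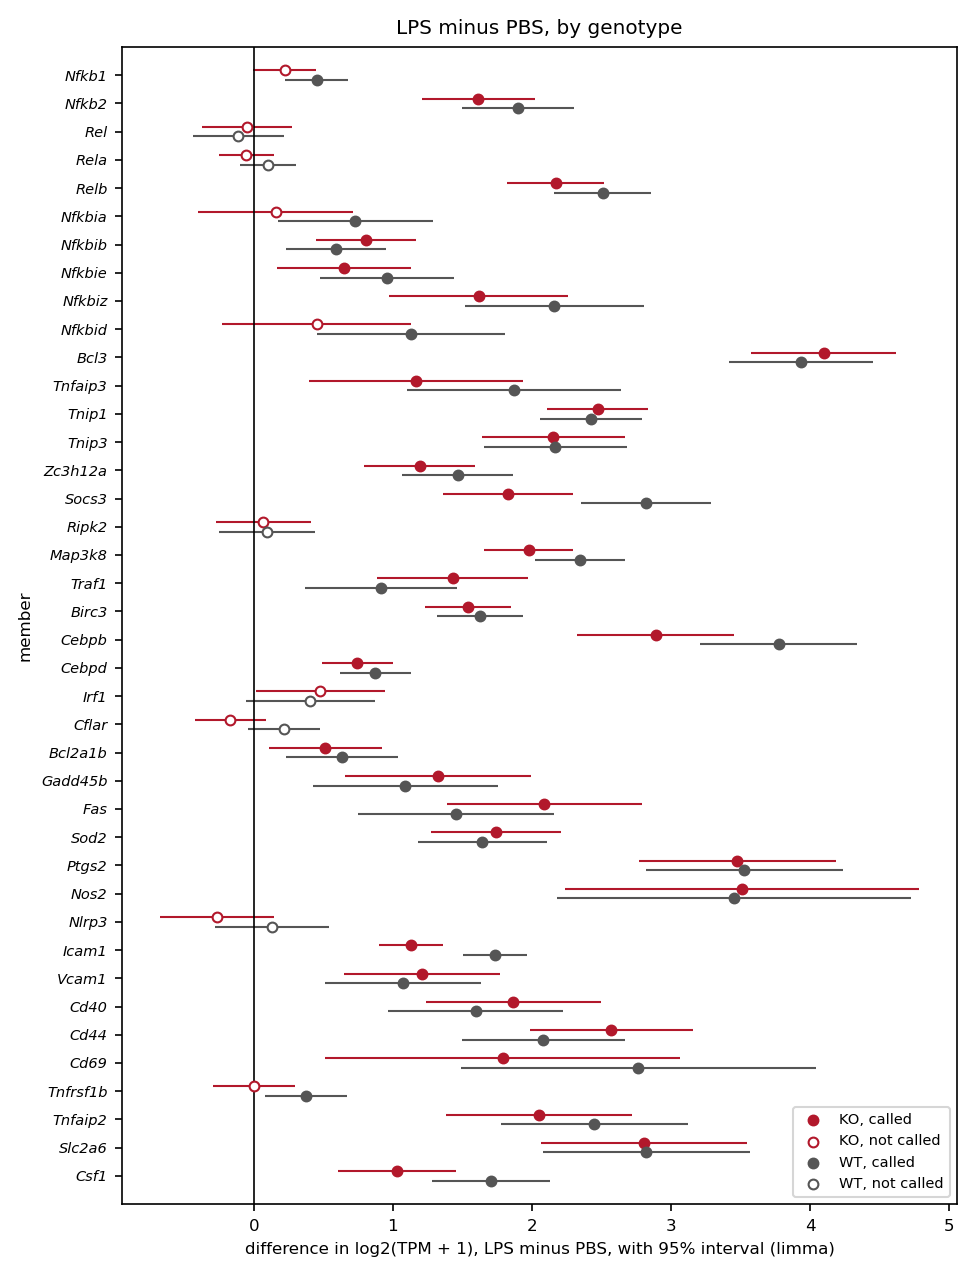
LPS minus PBS for each member in KO (red) and WT (grey), as the difference in log2(TPM + 1) with its 95% interval from limma. Filled points passed the test, 30 in KO and 34 in WT, and open points did not.

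Within each LPS group a single library was highest for most members. KO_LPS_1 was the highest of its group for 30 of 40 members, where 30.1% of all genes tested were highest there. WT_LPS_3 was the highest of its group for 30 of 40, where 24.1% of all genes were. KO_LPS_3 was the lowest of its group for 19 of 40, and the share of all genes lowest there is not given. Its pituitary markers summed to 32066 TPM, which lowers its other TPM values. Neutrophil markers summed to 24629 TPM in KO_LPS_1 and 11335 to 23331 in the other KO LPS libraries, and to 21564 TPM in WT_LPS_3 and 9137 to 19842 in the other WT LPS libraries. Monocyte markers summed to 1808 TPM in KO_LPS_1, below the 1936 of KO_LPS_2, and to 2469 TPM in WT_LPS_3, above the 1218 to 1563 of the other WT LPS libraries. Their part in these levels was not tested. The summed TPM of the 40 members was 6989, 5486, 5029.6 and 6108 in KO LPS, 5931, 5679, 7558 and 6332 in WT LPS, 4091, 2988 and 2799 in KO PBS, and 2314, 2899 and 2197 in WT PBS. Every LPS library exceeded every PBS library in this sum. Within KO PBS, KO_PBS_911 owed its higher sum largely to Nfkbia. The sum of 11 immediate early and dissociation genes was 12759 TPM in KO_LPS_1 and 6410 to 8447 in the other KO LPS libraries, and 7630, 8420, 6890 and 8449 TPM in WT_LPS_1, WT_LPS_2, WT_LPS_3 and WT_LPS_4. It was 13449 in KO_PBS_911, 10292 in KO_PBS_912 and 7978 in KO_PBS_915, and 6286, 10091 and 7347 in WT_PBS_904, WT_PBS_913 and WT_PBS_914. The libraries with the highest immediate early sums in KO LPS, KO PBS and WT PBS were also those with the highest Tnfaip3 in their groups, whereas WT_LPS_3, with the highest Tnfaip3 in WT LPS, had the lowest immediate early sum of that group. What part tissue dissociation had in these levels was not tested.

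The comparison of KO with WT under PBS asks how the genes at rest differ between the genotypes. Icam1 was the member that passed the test, at 90.4, 99.2 and 95.3 TPM in KO PBS against 61.1, 57.6 and 53.4 TPM in WT PBS. It was higher in KO by 0.72 ± 0.11 (adjusted p = 0.0163), and the KO libraries all exceeded the WT libraries. Thus 1 of 40 members rose and 0 fell; 0.796% of all genes rose and 1.02% changed in either direction. The call was lost without any of the 3 KO PBS libraries, WT_PBS_913 or WT_PBS_914, with the difference at 0.67 to 0.75 and adjusted p from 0.0599 to 0.0891. With limma, 11 members had an unadjusted p under 0.05. The share of all genes at that level is not given, here or for the same counts below, so these counts are not read as results. Csf1 differed by 0.72 ± 0.21 (adjusted p = 0.124), with the 3 KO libraries at 30.3 to 31.6 TPM and the WT libraries at 15.6 to 19.9. Nlrp3 was at 165, 169.5 and 169 TPM in KO PBS and 127, 109 and 93.7 in WT PBS, a difference of 0.62 ± 0.20 (adjusted p = 0.17). The groups did not overlap for these 3 genes. WT_PBS_914 had the lowest WT PBS level of all 3, and of 22 of the 40 members. Its pituitary markers summed to 88718 TPM, which lowers its other TPM values. Without WT_PBS_914 the Icam1 difference was 0.67.
Nfkb1, Nfkb2, Relb, Nfkbid, Zc3h12a, Cebpb and Tnfrsf1b also had every KO PBS library above every WT PBS library. Together with Icam1, Csf1 and Nlrp3 they made 10 of 40, where 14.9% of all genes did so; Cebpd and Nos2 had every KO PBS library below, 2 of 40, where 10.9% of all genes did. The difference was 0.59 ± 0.28 for Nfkbia (adjusted p = 0.324), 0.84 ± 0.38 for Tnfaip3 (adjusted p = 0.314) and 0.54 ± 0.32 for Nfkbiz (adjusted p = 0.432), and in all 3 KO_PBS_911 was the highest PBS library. Of the other IkB genes, Nfkbid differed by 0.92, Nfkbie by 0.19, Nfkbib by -0.01 and Bcl3 by -0.21. Of the 5 feedback regulators 4 were positive (median of the 5, 0.51), and Tnip1 was at -0.03. None of these passed the test. The median member differed by 0.12, with 26 positive and 14 negative. The median of all genes was -0.0024, and 49.1% of all genes were positive.

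**Figure D4:**
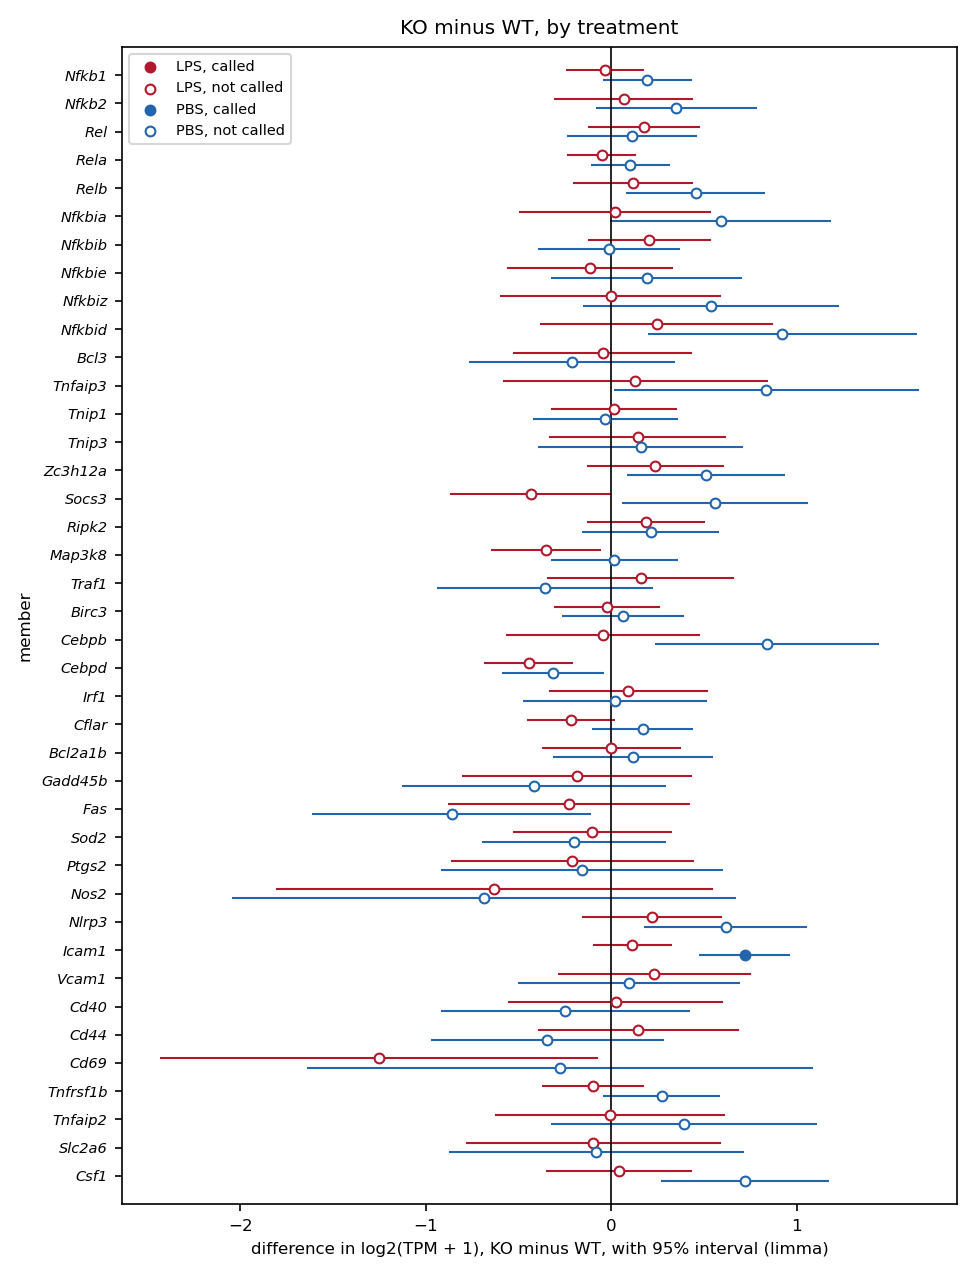
KO minus WT for each member under LPS (red) and PBS (blue), as the difference in log2(TPM + 1) with its 95% interval from limma. Icam1 under PBS, at 0.72, is the filled point that passed the test, and all other points are open.

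Under LPS the same comparison asks whether the induced levels differ between the genotypes. No member passed the limma test (0 of 40, against 0.497% of all genes), 4 had an unadjusted p under 0.05, and voom on recovered reads also called 0. Cebpd came nearest. It was at 63.3, 66.6, 68.5 and 64.1 TPM in KO LPS, 86.6, 78.3, 82.7 and 115 in WT LPS, 42.7, 36.5 and 37.4 in KO PBS, and 49.4, 53.1 and 43.3 in WT PBS. KO lay below WT with no overlap under both treatments, by -0.45 ± 0.11 under LPS (adjusted p = 0.0939) and -0.31 ± 0.13 under PBS (adjusted p = 0.259). Socs3 was the other member with every KO LPS library below every WT LPS library, and its difference was -0.43 ± 0.20 (adjusted p = 0.427). These were 2 of 40 members, where 1.96% of all genes lay so; 0 members lay above without overlap, where 4.22% of all genes did.
Map3k8 was at 107, 135, 105 and 94.6 TPM in KO LPS and 124, 166, 120.4 and 155 in WT LPS, with overlapping groups and a difference of -0.35 ± 0.14 (adjusted p = 0.332). Cd69 was at 7.79, 4.11, 2.81 and 3.06 TPM in KO LPS, 12.2, 4.96, 47.6 and 4.86 in WT LPS, 0.567, 0.674 and 0.248 in KO PBS, and 0.439, 1.09 and 0.933 in WT PBS. Its difference under LPS of -1.25 ± 0.55 (adjusted p = 0.397) rested largely on WT_LPS_3 and was -0.59 without it. The inhibitors were close to level: 0.018 ± 0.24 for Nfkbia, 0.13 ± 0.33 for Tnfaip3 and -0.0028 ± 0.28 for Nfkbiz, with 95% intervals of -0.50 to 0.54, -0.58 to 0.84 and -0.60 to 0.59 that leave room for differences of either sign. Their signs turned in some alternatives, as given in the closing section. Of the 40 members, 20 differences were positive and 20 negative, while 62.8% of all genes were positive. The number of members positive ran from 12 to 30 over the alternatives. The median was -0.00094 for the members and 0.07 for all genes; with median-of-ratios scaling these became -0.09 and -0.01.

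**Figure D5:**
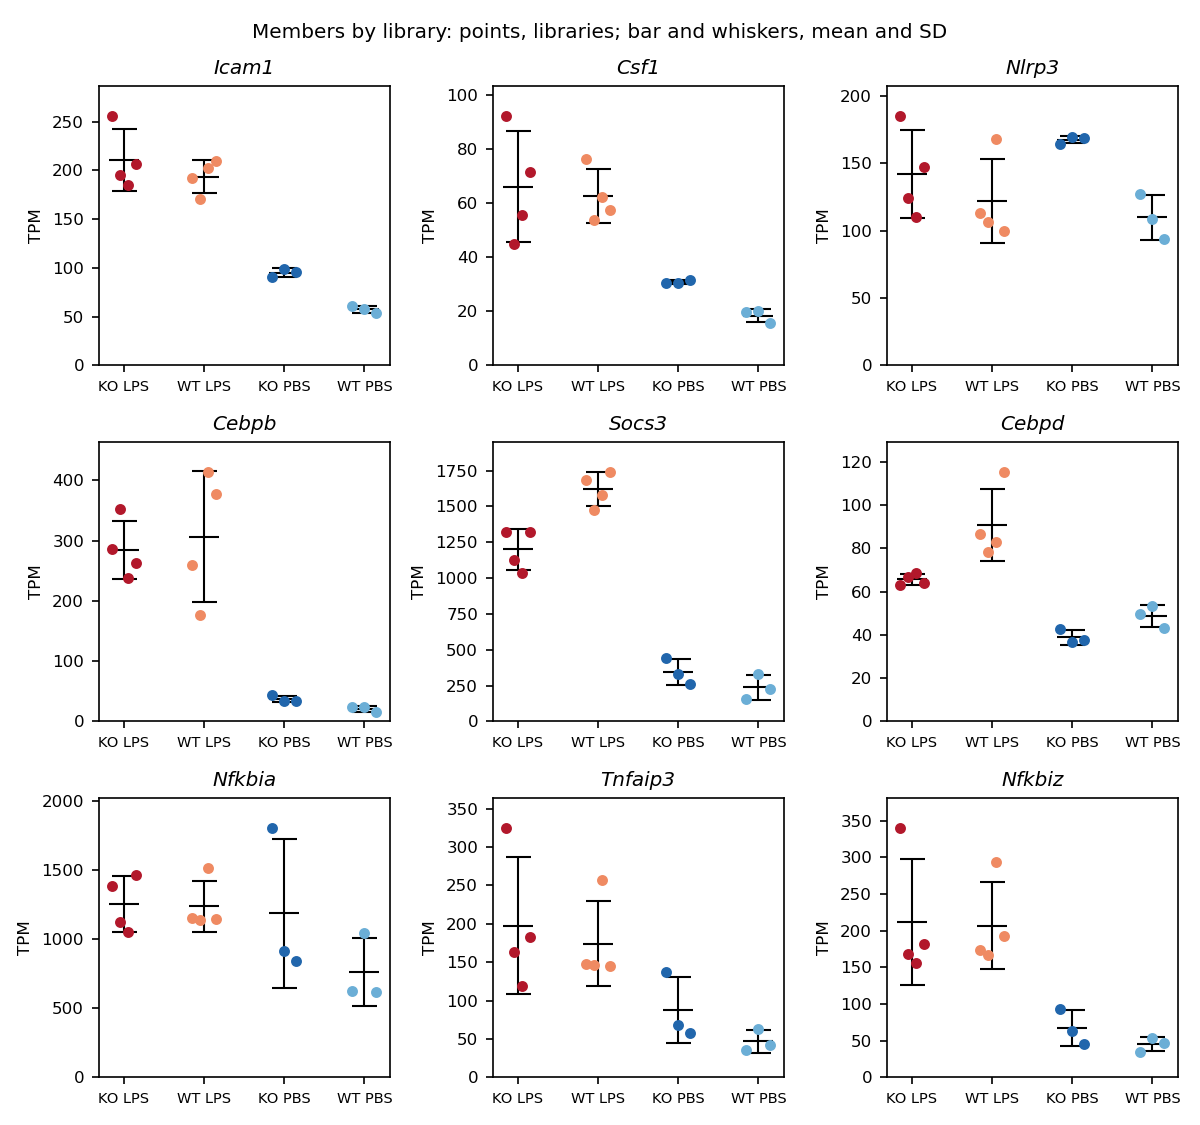
TPM of 9 members by library, with groups in the order KO LPS, WT LPS, KO PBS and WT PBS. Points are libraries and the bars with whiskers give mean and SD (n = 4, 4, 3 and 3). Icam1, Csf1 and Nlrp3 show KO PBS apart from WT PBS, Socs3 and Cebpd show KO LPS below WT LPS, and Nfkbia, Tnfaip3 and Nfkbiz show overlapping genotypes under LPS.

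Whether the response to LPS differed between the genotypes was tested as an interaction, the response in KO minus that in WT. It was called for 0 of 40 members and for 0% of all genes with limma, 5 members had an unadjusted p under 0.05, and voom called 0 members. Icam1 had the smallest p, with a response smaller in KO by -0.60 ± 0.15 (95% interval -0.93 to -0.28, adjusted p = 0.373). Its group means were 211 ± 31.5 TPM in KO LPS and 194 ± 16.9 in WT LPS, which differed by 0.11 ± 0.10 (adjusted p = 0.705), against 94.9 ± 4.42 in KO PBS and 57.4 ± 3.82 in WT PBS. Socs3 followed at -0.99 ± 0.31 (adjusted p = 0.427), with KO below WT under LPS and a difference of 0.56 ± 0.23 under PBS (adjusted p = 0.271). Cebpb was at -0.88 ± 0.37 (adjusted p = 0.502), Csf1 at -0.68 ± 0.28 (adjusted p = 0.501) and Cflar at -0.38 ± 0.17 (adjusted p = 0.51). For Nfkbia, Tnfaip3 and Nfkbiz the interaction was -0.57 ± 0.37, -0.71 ± 0.50 and -0.54 ± 0.42 (adjusted p = 0.627, 0.669 and 0.692). The estimate was negative for 27 of 40 members, while 55.9% of all genes had a positive one. Its median was -0.14 for the members and 0.048 for all genes, or -0.22 and -0.01 with median-of-ratios scaling. Over the alternatives 9 to 18 of 40 members were positive. One-sided signs were also seen in other lists. All 11 immediate early and dissociation genes and all 8 microglial markers were negative in the interaction (medians -0.36 and -0.42). All 8 neutrophil markers were positive (median 0.82), as were 7 of 8 endothelial and mural markers. Across the 40 members, as a description, the responses in KO and WT, which share no library, had a Pearson correlation of 0.934.

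A further list of 45 genes held the receptors, adaptors, kinases and ubiquitin enzymes that act upstream of the members. In KO 10 rose and 11 fell after LPS, where 7.82% of all genes rose and 26.9% fell. In WT 12 rose and 7 fell, where 7.95% of all genes rose and 34.1% fell. Falls were thus no more frequent in this list than among all genes. The number of falls depended on scaling: with median-of-ratios scaling 17 rose and 1 fell in KO, and 24 rose and 0 fell in WT. That scaling also moved the median of all genes to 0.00 in KO and 0.01 in WT. The shares of all genes that rose or fell with it are not given here. Ikbke, an IkB kinase relative that acts in interferon induction, averaged 71.6 ± 8.65 TPM in KO LPS, 67.7 ± 28 in WT LPS, 1.37 ± 0.771 in KO PBS and 2.99 ± 1.28 in WT PBS. It rose by 4.99 ± 0.33 in KO and 4.07 ± 0.33 in WT (adjusted p = 8.8e-07 and 4.8e-06). Irak3, a kinase family member that restrains Toll-like receptor signalling, averaged 74.8 ± 12.4, 82.1 ± 30.6, 6.29 ± 1.42 and 10.3 ± 2.91 TPM and rose by 3.38 and 2.84 (adjusted p = 3.29e-06 and 1.45e-05). Tlr2, a receptor for bacterial lipoproteins, rose by 1.60 in KO and 2.21 in WT (adjusted p = 0.000372 and 5.82e-05). Next in size were Tank in KO (0.97, adjusted p = 0.000187) and the adaptor gene Myd88 in WT (1.00, adjusted p = 3.57e-05).
Tlr4, the endotoxin receptor itself, averaged 61.1 ± 19.7 TPM in KO LPS, 60.8 ± 6.13 in WT LPS, 108.6 ± 4.29 in KO PBS and 87.1 ± 8.00 in WT PBS. It fell by 0.87 ± 0.18 in KO (adjusted p = 0.00257), also with median-of-ratios scaling, and by 0.51 ± 0.18 in WT (adjusted p = 0.0356), where it was not called with that scaling, with quantile normalisation, with Gm23935 removed or with voom. The other largest falls were Otud7b (-0.53), Btrc (-0.48) and Ly96 (-0.44) in KO (adjusted p = 0.0053, 0.0426 and 0.000773), and Btrc (-0.73), Traf5 (-0.70) and Otud7b (-0.54) in WT (adjusted p = 0.0045, 0.024 and 0.00422). None of these was called with median-of-ratios scaling. Otud7b was called lower in both genotypes with quantile normalisation, with Gm23935 removed and with voom. Btrc in WT was called lower with Gm23935 removed and with voom, Traf5 in WT with voom, and Ly96 in KO with quantile normalisation and with Gm23935 removed. Between the genotypes 0 of 45 passed limma under LPS, under PBS or in the interaction, where 5, 8 and 3 had an unadjusted p under 0.05, and voom on recovered reads called 0 in each. The smallest p under PBS was that of Tnip2, another A20-binding protein (0.34 ± 0.08, adjusted p = 0.0581). Under LPS it was that of Ly96, which encodes the TLR4 partner MD-2, at 42.1 ± 1.40 TPM in KO LPS and 53.2 ± 3.47 in WT LPS (-0.33 ± 0.07, adjusted p = 0.0606). With median-of-ratios scaling, or with Gm23935 removed, Ly96 was called lower in KO under LPS.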

How the data were processed

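RNA of bead-purified mouse microglia was sequenced in 14 libraries. Per the submitters' processing notes, the tools were featureCounts 2.0.1, STAR 2.7.10b, cutadapt 4.4 and FastQC 0.11.9. The build those notes give (hg38) is human although the table's gene IDs are from mouse, and strand is not stated in the sources used here. The deposited values are TPM, which the authors made from reads per gene length scaled to the same total in each library, so a transcript that takes a large share lowers all others. Within 0.02 reads, 98.4 to 98.5% of values came out whole after multiplying by exon length, which gave the depths; TPM was tested, not reads.

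Genes with at least 1 TPM in at least 3 libraries (18724) were fitted with limma 3.58.1 in R 4.3.3 on log2(TPM + 1) with an intensity trend and 4 group means. P-values were adjusted by Benjamini-Hochberg over all of them, and adjusted p under 0.05 was called. Fits were also run on simulated data with known changes. There all genes had the same spread and libraries of a group differed only in depth, unlike the real libraries. The outcome of that run is not given here. A fold change is printed for called members, for the 3 smallest p where fewer than 3 were called, and always for Nfkbia, Tnfaip3 and Nfkbiz. Of the upstream list, at most 4 called genes per direction are printed. Socs3 under LPS, and Cebpb, Cflar and Socs3 in the interaction, were named after their values were seen. The members and lists were chosen with earlier results of these data known. Alternatives changed the pseudocount, filter, scaling, trend, groups fitted and libraries included; voom on recovered reads was added after seeing the data.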

Additional observations from a re-analysis of the deposited data

Results flagged for a closer look

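Of 82 combinations of a member and an LPS group of 4 libraries (or its sum), 4 held a library whose gap to the nearest other exceeded Dixon's critical share of the group's range; chance alone flags about 5% of groups. Nfkbiz was at 340.2 TPM in KO_LPS_1, while the other KO LPS libraries were at 156 to 182 TPM. Slc2a6 was at 44.9 TPM in KO_LPS_1, with the others at 30.7 to 32.5 TPM. Nfkbia was at 1516 TPM in WT_LPS_3, with the other WT LPS libraries at 1139 to 1152 TPM. Tnfaip3 was at 257 TPM in WT_LPS_3, with the others at 145 to 147 TPM. KO_LPS_1 and WT_LPS_3 are the libraries that were highest in their groups for 30 of 40 members each.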

How the results depend on the processing

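The number of members called after LPS ran from 26 to 32 in KO and from 30 to 37 in WT over all alternatives, and none was called lower. Under LPS the genotypes differed in 0 members in every alternative, also with the replicate block. After each gene's group mean was subtracted, same-numbered KO and WT LPS libraries correlated at 0.06, -0.06, -0.09 and -0.03. The labels do not say what the numbers mark, and shared handling of same-numbered libraries was not tested. The 1 member called between genotypes under PBS became 0 to 1 on leaving out a library, and 0 without both WT_PBS_914 and KO_LPS_3 (Icam1 adjusted p = 0.0763); the cause was not tested. Signs turned in uncalled results. Nfkbia, KO minus WT under LPS, was -0.073 with median-of-ratios scaling, -0.13 with quantile normalisation and -0.060 to 0.12 on leaving out a library. Nfkbiz was 0.026 with quantile normalisation, 0.12 without WT_PBS_914 and KO_LPS_3, and -0.25 to 0.18 on leaving out a library. Tnfaip3 ran from -0.14 to 0.34 on leaving out a library, and Nfkbia after LPS in KO from -0.045 to 0.50. Of 65 calls on named members, 14 were lost in at least 1 alternative. Tnip3 had as few as 12 reads, Cd69 as few as 9 and Nos2 as few as 8, so their PBS levels are imprecise. The recovered reads of Nos2 were also off a whole number by up to 0.48.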
